A study of Mus musculus with 2 samples.

Results

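The 9 genes described here encode secreted factors that support neurons, together with the receptors of 1 of these factors, and were measured in the striatum of mice that had received MPTP, a toxin of dopaminergic neurons. They are *Gdnf*, its receptors *Gfra1* and *Ret*, its relative *Nrtn*, the neurotrophins *Bdnf* and *Ntf3*, and *Cntf*, *Manf* and *Cdnf*. Members were all probes, apart from controls, whose gene name in the array files equalled 1 of these symbols. This gave 13 probes for 9 genes, out of 56605 probes for 37325 gene names. The WT mice are labelled as strain C57BL/6J. The Cx30 KO mice are labelled as strain Cx30-LacZ and lack connexin 30 (Cx30), a gap junction protein of astrocytes that is encoded by *Gjb6*, in every cell. According to the methods, homozygous non-mutant offspring of interbred heterozygous mice were the WT controls. All mice were males 8 weeks old, were injected with 20 mg/kg MPTP 4 times with 2 h between injections, and their tissue was taken on day 1 after the last one. For each genotype, striatal RNA of 2 mice was pooled and hybridised to 1 single-colour array. There are thus no replicates, no difference between genotypes can be tested, and each value below compares 1 pool with 1 other pool. Mice injected with saline were not analysed here, so the values do not measure the response to MPTP. The labels give only the tissue, and in such tissue RNA fewer cells of a type and less RNA per cell cannot be told apart.

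GDNF is a survival factor for dopaminergic neurons that is made in the striatum, the target of their axons. It binds the membrane-anchored co-receptor GFRα1, and the complex activates the receptor tyrosine kinase RET. In the adult striatum, parvalbumin interneurons are a known source of GDNF, and astrocytes can make it after injury. BDNF and neurotrophin-3 act through TRK receptors, and CNTF acts through a receptor complex shared with the cytokine LIF. MANF and CDNF are residents of the endoplasmic reticulum (ER) that can be secreted and that also protect dopaminergic neurons.

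The array carries 60-base probes, and the sequences of the 3 probes past a ratio limit are shown because the results for *Gdnf* and *Cdnf* rest on them. Each is written 5′ to 3′ in lower case as in the array files, and no base is marked. Both *Gdnf* probes lie on the plus strand of mm9 in the gene *Gdnf*, probe 1 at chr15:7784398-7784457 and probe 2 at chr15:7787474-7787533. Their starts are 3076 bases apart, and the file lists the same 4 RefSeq transcripts for both. Whether each lies in coding sequence or in an untranslated region is not given in the sources used here. The *Cdnf* probe lies on the plus strand at chr2:3443253-3443312. Probe 1 of *Gdnf* is shown whole, and the first 30 bases are shown of the others.
*Gdnf* probe 1 (A_55_P2745662): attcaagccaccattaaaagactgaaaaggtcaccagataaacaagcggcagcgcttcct
*Gdnf* probe 2 (A_55_P2045896), bases 1 to 30: ctgatgtctcggtcgtttgtgttatacaac
*Cdnf* probe (A_51_P479645), bases 1 to 30: agcctatcagtcttaagaagcaggcaatgt
Bases G and C make up 45% of *Gdnf* probe 1 and 35% of *Gdnf* probe 2.

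Signals below are the processed signals of the scanner software in arbitrary units, with the software's error of the spot after ±. This error covers the spot and not the mice. Ratios are Cx30 KO over WT after each array was scaled to its 75th percentile, and are given as log2 ratios. Log2 ratios of repeated spots of a probe had an SD of 0.04 over 298 probes, smaller than the software's errors given below. A probe was counted as lower when its ratio was at most 0.66 and as higher when it was at least 1.5, the study's own limits. Counts cover probes that the software marked as well above background on 1 array or both, here called detected. Such probes reached down to signals of 19.8 in WT and 17.4 in Cx30 KO. The targeted gene was checked first. The brighter *Gjb6* probe had a signal of 1788 ± 179 for WT and 111 ± 11.6 for Cx30 KO, which was 15.4-fold lower. None of the members (0) lies on chromosome 14, where *Gjb6* lies, but the related gene *Gfra2* described below does. By brightest probes, all 9 markers of striatal projection neurons were detected and lay within the limits, with a median log2 ratio of −0.16. Of 7 endothelial and mural markers 1 was lower, and of 4 detected choroid plexus markers 1 was lower and 1 higher. Other marker lists, described below, differed more between the pools. All 6 cortical excitatory neuron markers were higher, while 5 of 7 oligodendrocyte markers, 4 of 8 microglial markers and 6 of 10 immediate early genes were lower. Over all detected genes 6.23% were lower and 7.28% higher, the shares to set beside each count of genes.

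Of the 13 probes, 11 were detected, 10 of them on both arrays. *Ret* and *Ntf3* were below this mark on both arrays. Among the 11 probes, 1 was lower in Cx30 KO, 2 were higher and 8 lay within the limits. These are 9.09% and 18.2% of the probes, while 5.98% of all 33910 such probes on the array were lower and 7.70% were higher. The median log2 ratio was 0.04 over the 11 probes and 0.04 over all such probes, whose middle 50% spanned −0.17 to 0.24. Over the 10 probes well above background on both arrays, log2 ratios ran from −0.80 for *Gdnf* probe 2 to 0.64 for *Cdnf*. At the level of genes, 5 members have 1 probe and 4 have 2 probes. As a measure of agreement within the array, the 2 probes of a gene differed by a median of 0.17 on the log2 scale over 4663 genes, with a 90th percentile of 0.55.

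**Figure D1:**
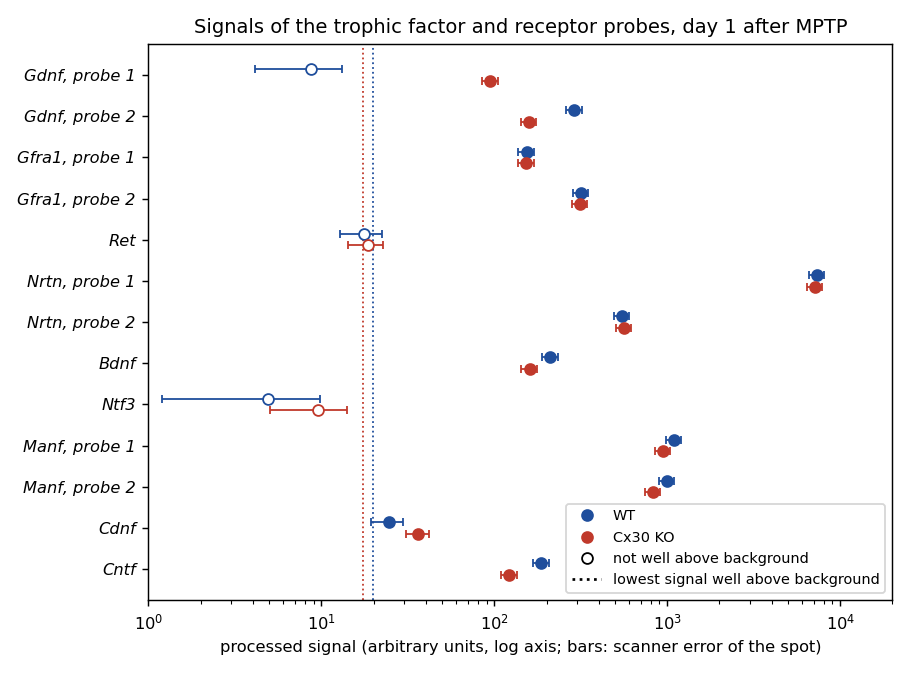
Processed signal of each probe (arbitrary units, log axis) in WT (blue) and Cx30 KO (red), 1 array for each genotype. Bars are the scanner software's error of the spot, open symbols are not well above background, and dotted lines mark the lowest signal that counted as such, 19.8 for WT and 17.4 for Cx30 KO. *Gdnf* probe 1 lies below its line in WT and at 94.5 in Cx30 KO, while *Gdnf* probe 2 lies at 290 in WT and 158 in Cx30 KO.

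The largest differences among the members were those of *Gdnf*, whose 2 probes went opposite ways. Probe 2 had a signal of 290 ± 29.4 for WT and 158 ± 16.3 for Cx30 KO. Its log2 ratio was −0.80 ± 0.21, a ratio of 0.573, and 3.65% of all detected probes lay below it. Probe 1 had a signal of 8.66 ± 4.51 in WT, which was not well above background, and 94.5 ± 10.2 in Cx30 KO. The measured log2 ratio of probe 1 was 3.52 ± 0.77. With WT set to the lowest detected signal, Cx30 KO was at least 5.02-fold higher, a lower limit that leaves out the error of the spot. Both rest on the software's background-subtracted signals. With normexp background correction, which here adds an offset of 50 to each signal, the log2 ratio was 1.08, smaller than this lower limit. Such an offset draws ratios of dim probes towards 0, and its part in this value was not tested. Probe 1 was thus high only in Cx30 KO, and probe 2 was clear of background in both pools and lower in Cx30 KO.

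The log2 ratios of the 2 *Gdnf* probes differed by 3.13 with probe 1 at its lower limit. With normexp background correction they lay closer together, at 1.08 for probe 1 and −0.61 for probe 2. The 90th percentile of 0.55 given above is for genes with 2 probes well above background on both arrays, which leaves out *Gdnf*. Of 4975 genes with 2 detected probes, 30 (0.603%) had 1 probe lower and 1 higher. When both probes had to be well above background on both arrays, this held for 9 of 4663 genes (0.193%). *Gdnf* is not among these 9, because its probe 1 failed the mark in WT. Of 1891 probes detected in Cx30 KO only, 67.9% passed the upper limit, so that passing it is usual for a probe of this kind. A lower limit of the fold as large as that of *Gdnf* probe 1 was reached by 25 of them (1.32%).

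The criteria of the study included a Z-score beyond 2, and the set of probes behind its mean and SD is not given in the sources used here. Here a Z-score of the log2 ratio was computed from 2 such sets. Taken from the 1000 probes nearest in brightness, it was −2.24 for *Gdnf* probe 2 and 4.35 for *Gdnf* probe 1. Both then stayed past the limits, against 2.93% lower and 2.08% higher of all probes. Taken from all probes, it was −1.38 for *Gdnf* probe 2, which lies short of the limit on that basis, against 1.93% lower and 2.13% higher of all probes.

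The single spot of *Gdnf* probe 1 on the Cx30 KO array was uneven. Its pixels had an SD of 34.8% of their mean, where the median of 2414 spots of like brightness was 19.3% and 0.331% were as uneven. The software had left out 2 bright pixels, used 43 pixels, and did not mark the spot as an outlier. The median pixel of this spot was 166, against 89.0 on the WT array. For *Gdnf* probe 2 the SD was 16.7% in WT and 16.0% in Cx30 KO, near the median of like spots. Each probe has 1 spot on each array, and the part of this unevenness in the value of probe 1 was not tested.

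Marker genes of a known source of GDNF stood beside these values. *Pvalb*, which marks parvalbumin interneurons, had a signal of 4533 ± 453 for WT and 1787 ± 179 for Cx30 KO, that is, a log2 ratio of −1.27. The other 5 of 6 interneuron markers lay within the limits, from −0.19 for *Nos1* to 0.50 for *Npy*, and the list had a median log2 ratio of 0.02, with 3 genes above 0 and 3 below. By brightest probes, only *Aqp4* of 7 astrocyte markers was lower, at −0.95, and that list had median signals of 8591 (WT) and 8138 (Cx30 KO). The list leaves out the genes of reactive astrocytes, some of which the study reported as lower in Cx30 KO. The part of these cells in the *Gdnf* values was not tested.

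**Figure D2:**
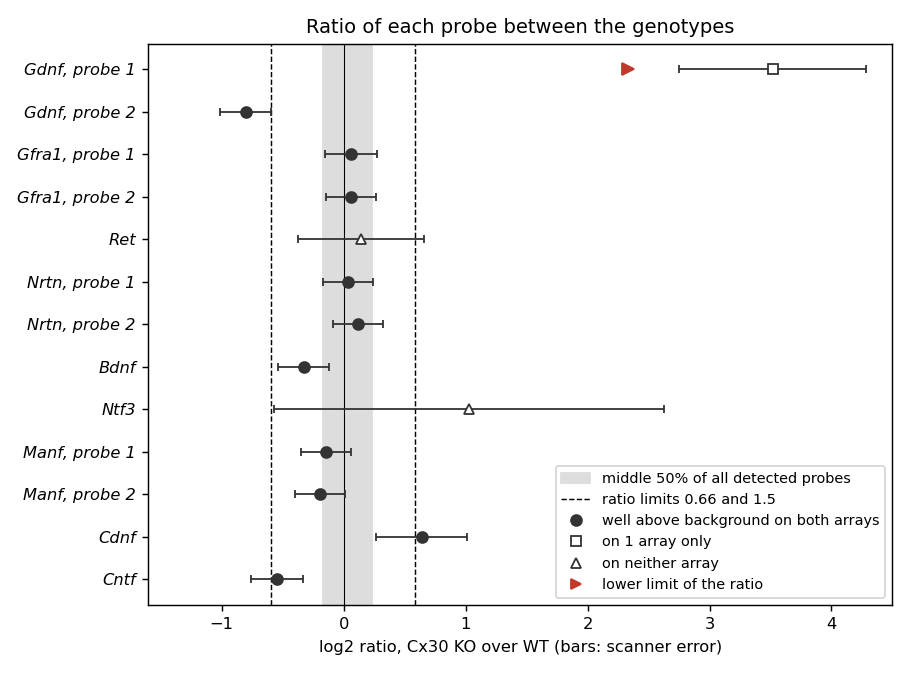
Log2 ratio of Cx30 KO over WT for each probe, with the scanner error as bars. The grey band is the middle 50% of all detected probes (−0.17 to 0.24), dashed lines are the ratio limits of 0.66 and 1.5, and the red arrowhead is the lower limit of the fold for *Gdnf* probe 1. *Gdnf* probe 2 lies below the lower line and *Cdnf* just above the upper line, whereas the *Gfra1*, *Nrtn* and *Manf* probes lie near 0.

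The GDNF co-receptor *Gfra1* did not differ by more than the error between the pools. Its probe 1 (A_52_P398998, chr19:58311604-58311663, minus strand) had a signal of 154 ± 16.2 for WT and 153 ± 16.0 for Cx30 KO, that is, a log2 ratio of 0.06 ± 0.21. Its probe 2 (A_52_P311022, chr19:58313006-58313772, minus strand) had a signal of 316 ± 31.8 for WT and 313 ± 31.5 for Cx30 KO, again 0.06 ± 0.21. The mapped positions of probe 2 span 767 bases for a 60-base probe, so its match is split, as across a splice junction. The 2 log2 ratios of *Gfra1* differed by 0.0039. *Ret*, the signalling receptor, was at the edge of detection. Its probe (A_55_P2160676, chr6:118101791-118101850, minus strand) had a signal of 17.6 ± 4.76 for WT and 18.5 ± 4.31 for Cx30 KO, neither well above background, so no ratio is given.

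Some other receptors of the family differed more than *Gfra1* did. *Gfra2*, the preferred co-receptor of neurturin, had a signal of 327 ± 32.9 for WT and 623 ± 62.4 for Cx30 KO, that is, a log2 ratio of 1.00 ± 0.21, while its other probe was not detected. *Gfra2* lies on chromosome 14 like the targeted *Gjb6*, the mice are labelled as different strains, and the part of this linkage in the *Gfra2* value was not tested. *Gfra3*, the co-receptor of artemin, did not clear the background in WT, at 4.76 ± 4.79, and had 35.6 ± 5.56 in Cx30 KO, at least 1.90-fold higher. *Gfra4*, the co-receptor of persephin, lay within the limits by both probes, at 0.20 and 0.23. *Gas1*, a GFRα-like protein that can bind RET, was lower, with 73.6 ± 8.67 in WT and 39.9 ± 5.70 in Cx30 KO and a log2 ratio of −0.81 ± 0.27. Of the RET-independent receptors, *Ncam1* lay at 0.40 by its brightest probe and between −0.40 and 0.19 by its 3 other detected probes, and *Sdc3* lay at −0.17. Thus *Gfra1* was level between the pools, *Gfra2* and *Gfra3* were higher in Cx30 KO, and *Gas1* was lower.

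*Nrtn*, which encodes neurturin, a GDNF relative that also supports dopaminergic neurons, was level between the genotypes. Its probe 1 (A_55_P2042086, chr17:56890748-56890807, minus strand) had 7295 ± 730 for WT and 7114 ± 711 for Cx30 KO, that is, a log2 ratio of 0.04 ± 0.20. Its probe 2 (A_66_P117836, chr17:56891913-56896677, minus strand, mapped across 4765 bases) had 546 ± 54.8 for WT and 562 ± 56.4 for Cx30 KO, that is, a log2 ratio of 0.11 ± 0.20. The sign of probe 1 depends on the scaling, since it was −0.01 when arrays were scaled to their medians. Among the other ligands, *Artn*, which encodes artemin, was higher in Cx30 KO, with 72.4 ± 8.60 in WT and 114 ± 12.1 in Cx30 KO and a log2 ratio of 0.72 ± 0.23. Persephin (*Pspn*) was not detected. Over the whole family of 13 ligands and receptors, 10 genes were detected by their brightest probe, of which 2 were lower (*Gdnf* by its probe 2, and *Gas1*) and 3 were higher (*Artn*, *Gfra2*, *Gfra3*). Over all 22183 genes detected, 6.23% were lower and 7.28% were higher. The median log2 ratio of the family was 0.13, against 0.03 over all genes. When the mean of a gene's detected probes was taken in place of the brightest, *Gdnf* turned from lower to higher, at 1.36, or 0.76 with probe 1 at its lower limit. The family then had 1 gene lower and 4 higher, and the members had 0 lower and 2 higher. With normexp background correction only *Gfra2*, at 0.89, and *Gdnf* probe 2, at −0.61, remained past a limit among these 5, and *Artn*, *Gas1* and *Gfra3* lay at 0.40, −0.38 and 0.48.

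*Bdnf*, the neurotrophin that cortical neurons supply to the striatum, was lower by less than the limit. Its probe (A_55_P2036303, chr2:109566961-109567020, plus strand) had 211 ± 21.5 for WT and 160 ± 16.4 for Cx30 KO. The log2 ratio was −0.33 ± 0.21, a ratio of 0.797, and 14% of all detected probes lay below it. *Ntf3*, which encodes neurotrophin-3, was below the mark on both arrays (A_55_P2021565, chr6:126051431-126051490, minus strand). Its signal was 4.90 ± 4.92 in WT, a value substituted by the software, and 9.52 ± 4.47 in Cx30 KO, so no ratio is given. Both neurotrophins therefore lack a difference past the limits, *Bdnf* at a measurable level and *Ntf3* for want of signal.

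By their brightest probes, genes of neurotrophin receptors and processing lay within the limits as well. *Ntrk3*, the neurotrophin-3 receptor, lay at 0.08. *Ntrk2*, the BDNF receptor, lay at −0.37 by its brightest probe, with 5592 ± 559 in WT and 4107 ± 411 in Cx30 KO, and at −0.00 by its other probe. The shared receptor *Ngfr* lay at −0.03, the sorting receptors *Sort1* and *Sorcs2* at −0.04 and 0.23, and the processing proteases *Furin* and *Pcsk1* at 0.07 and 0.25. A dim second probe of *Sorcs2* was lower, with 28.6 ± 4.86 for WT and 16.9 ± 3.85 for Cx30 KO, the latter not well above background, or at least 1.57-fold. By the brightest probes, 0 of 10 detected genes of this list of 12 passed a limit, and its median was 0.07. Markers of cells and states in which *Bdnf* is known to be induced stood apart in opposite directions. All 6 markers of cortical excitatory neurons were higher in Cx30 KO (5 with normexp background correction), where their median signal was 124, against 17.2 in WT, with 4 of them, *Slc17a7* included, not well above background in WT. Of 10 immediate early genes, which neuronal activity induces, 6 were lower and none (0) higher, with a median log2 ratio of −0.78, and *Npas4* and *Arc* had −0.86 and −0.77. Their part in the *Bdnf* value was not tested.

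*Cntf*, a factor of astrocytes and Schwann cells that is released after injury, was lower but just short of the limit. Its probe (A_55_P2086949, chr19:12838236-12838295, minus strand) had 186 ± 19.1 for WT and 122 ± 12.8 for Cx30 KO. The log2 ratio was −0.54 ± 0.21, a ratio of 0.686 beside the limit of 0.66, and 6.93% of all detected probes lay below it. The file lists for this probe also a readthrough transcript that joins *Cntf* to its neighbour *Zfp91*, so RNA of both could bind it. The 3 *Zfp91* probes lay at −0.08, −0.03 and 0.55. The part of readthrough RNA in the *Cntf* value was not tested. Of 7 astrocyte markers 1 was lower, and that list had a median log2 ratio of −0.07. Markers of oligodendrocytes and of microglia were in part lower in the same pool. Of 7 oligodendrocyte markers 5 were lower, with a median log2 ratio of −0.73 and median signals of 14232 (WT) and 8105 (Cx30 KO). Of 8 microglial markers 4 were lower, the list having a median log2 ratio of −0.53 and median signals of 4898 (WT) and 3237 (Cx30 KO). The part of these cell types in the *Cntf* value was not tested.

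Receptor genes of CNTF did not share a direction. *Cntfr*, the CNTF-binding subunit, had 1159 ± 116 for WT and 1267 ± 127 for Cx30 KO, that is, a log2 ratio of 0.20. The signalling subunits *Lifr* and *Il6st* (gp130) lay at −0.36 and −0.27 by their brightest probes, while other probes of these genes lay at 0.24 and 0.15. The related ligand *Lif* lay at −0.56. *Clcf1*, another ligand of the CNTF receptor, had 40.8 ± 6.58 for WT and 11.5 ± 4.71 for Cx30 KO, where it was not well above background, and was at least 2.24-fold lower. Of the 7 genes of this family, 5 lay below 0, 1 was lower than the limit (*Clcf1*) and 0 were higher, with a median of −0.36. Over all detected genes on the array, 6.23% were lower and 7.28% higher, with a median of 0.03. With normexp background correction *Clcf1* lay at −0.36, within the limits.

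*Manf* was close to level, and its probes gave like values. Its probe 1 (A_51_P418168, chr9:106791278-106791337, minus strand) had 1093 ± 109 for WT and 940 ± 94.1 for Cx30 KO, that is, a log2 ratio of −0.15 ± 0.20. Its probe 2 (A_66_P135155, chr9:106792505-106792564, minus strand) had 991 ± 99.1 for WT and 825 ± 82.6 for Cx30 KO, that is, a log2 ratio of −0.19 ± 0.20. Both probes were thus lower by no more than the software's error, but by more than the SD of 0.04 between repeated spots of a probe. Its relative *Cdnf* was weak on both arrays, with 24.5 ± 5.16 in WT and 36.3 ± 5.42 in Cx30 KO, near the lowest signals well above background. The log2 ratio of *Cdnf* was 0.64 ± 0.37, a ratio of 1.56, just past the upper limit, with a Z-score of 0.79 among probes of like brightness. Its log2 ratio was 0.18 with normexp background correction, and quantile normalisation and the authors' normalised values also brought it within the limits.

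*Manf* is itself a gene that ER stress induces. By brightest probes, most other genes of this kind also lay below 0, several by less than the software's error. Of 16 genes, with *Manf* and *Cdnf* included, 13 were below 0 and 15 were within the limits. Their median log2 ratio was −0.17, against 0.03 over all detected genes, and the share of all genes below 0 was not counted. The ER chaperone *Hspa5* (BiP) lay at −0.22, *Creld2* at −0.48 and *Sdf2l1* at −0.57. *Ddit3* (CHOP), a transcription factor of prolonged ER stress, lay at 0.36 and *Hyou1* at 0.29. No gene of the list was lower than the limit (0 of 16).

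Secreted factors outside these families lay mostly within the limits by their brightest probes. All 18 such genes were detected and 17 lay within the limits, with 13 below 0 and a median of −0.09. By brightest probes the lowest were *Hbegf*, an EGF receptor ligand, at −0.53, *Hgf* at −0.51 and *Fgf1* at −0.49. Other probes gave other calls for 6 of these genes: 3 probes were lower (−0.94 and −0.68 for *Nrg1*, −0.67 for *Igf1*) and 4 were higher, of *Vegfa* (0.63), *Hgf* (at least 1.61-fold), *Hbegf* (at least 1.16-fold) and *Egf* (at least 2.53-fold). For *Hgf*, *Hbegf* and *Vegfa* these lay on the other side of 0 from the brightest probe. The brightest *Vegfa* probe lay at −0.07. *Gdf15*, a stress-induced factor that acts through GFRAL and RET, did not clear the background in WT, at 12 ± 4.25, and had 28.6 ± 4.61 in Cx30 KO, at least 1.52-fold higher. With normexp background correction *Gdf15* lay at 0.39, within the limits. Its receptor *Gfral* was not detected. Over all 57 related genes that are not members, 54 were detected, 2 were lower (*Gas1*, *Clcf1*) and 4 were higher (*Artn*, *Gfra2*, *Gfra3*, *Gdf15*). Over all detected genes on the array, 6.23% were lower and 7.28% were higher. Of the 54 genes, 34 lay below 0 and 20 above, with a median of −0.08, against 0.03 over all detected genes.

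**Figure D3:**
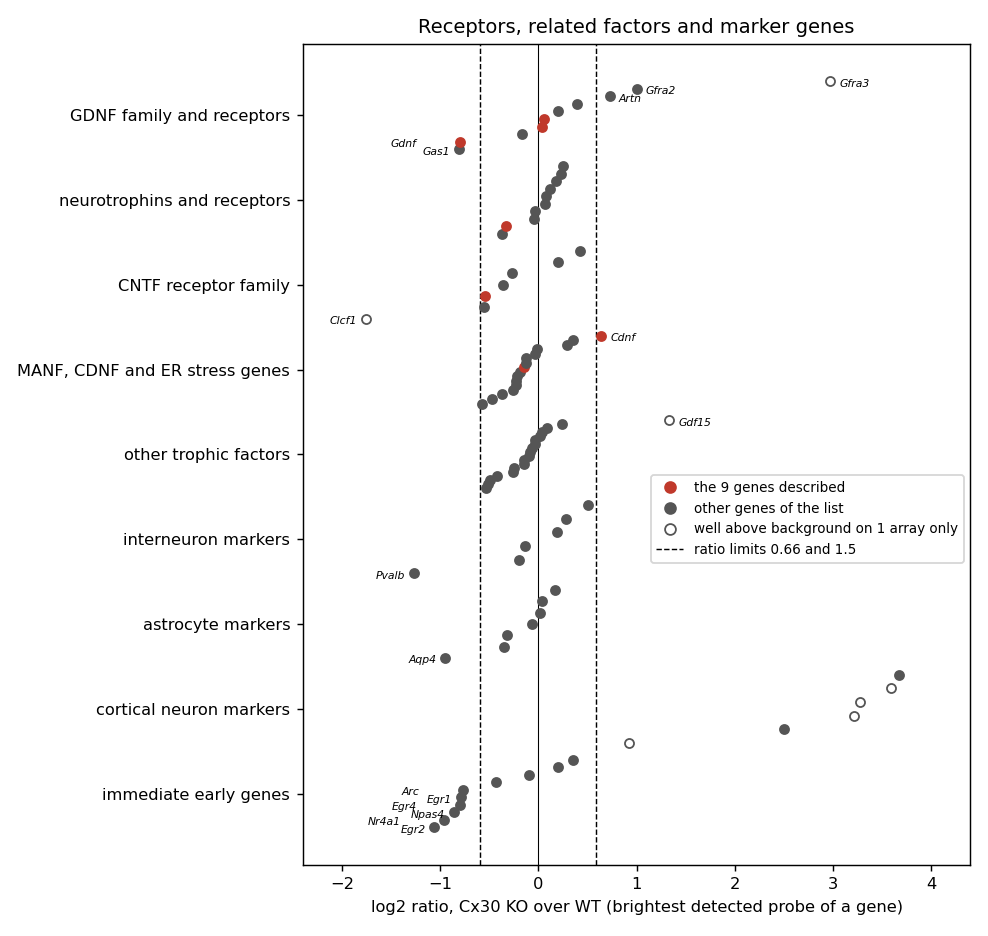
Log2 ratio of Cx30 KO over WT for the brightest detected probe of each gene, by list, with the members in red and genes past a limit named except in the cortical list. Open circles were well above background on 1 array only, dashed lines are the limits of 0.66 and 1.5, and the height within a row only separates the points. All 6 cortical markers lie to the right, 6 of 10 immediate early genes lie left of the lower limit, and the neurotrophin genes lie between the limits.

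The calls of the members were recomputed under 5 other ways of making the values. These are not 5 independent checks, since keeping outlier spots changed no member value and the authors' table nearly repeats quantile normalisation. *Gdnf* probe 2 kept a ratio below 0.66 under each, with log2 ratios from −0.85 to −0.61. *Gdnf* probe 1 stayed past the upper limit under each, but its value ran from 1.08 with normexp background correction to 3.52. *Bdnf* ran from −0.38 to −0.25 and *Cntf* from −0.59 to −0.44, both within the limits throughout. *Cdnf* was the only member whose call changed.

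**Figure D4:**
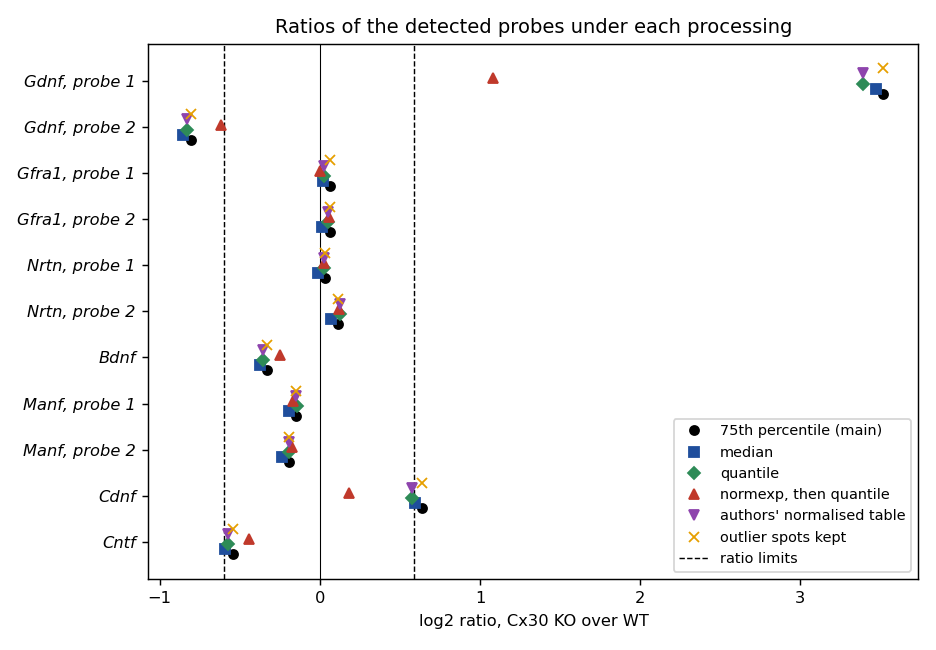
Log2 ratio of Cx30 KO over WT for each detected probe under the main scaling (75th percentile) and 5 alternatives, with the limits of 0.66 and 1.5 as dashed lines. The values of a probe lie close together except for *Gdnf* probe 1 and *Cdnf*, where normexp background correction gave 1.08 and 0.18.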

How the data were processed

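Striatal RNA of MPTP-treated mice was measured on 1 single-colour Agilent array for each genotype, so the number of arrays limits the precision and no test was run. The intensities that the authors deposited are processed signals, which Feature Extraction (10.7.1.1 per the file headers, 9.5.1.1 in the submitters' processing notes) corrected for background and for trends within an array. Of the values in the authors' series table, 100% lay within 1% of these signals after quantile normalisation. Positions are mm9 per the file headers, and a RefSeq table of another build was used for names only. Of 62976 spots, controls and 48 (WT) and 52 (Cx30 KO) outlier spots were left out, and repeated spots were averaged on the log2 scale. Detection required the software's mark on 50% or more of a probe's spots, which 56.6% of probes met on the WT array and 58.2% on the Cx30 KO array, and 0 spots were saturated. The 75th percentiles were 401.2 (WT) and 381.8 (Cx30 KO). Where 1 array failed the mark, the fold was bounded with that array's lowest detected signal, or the probe's own signal if larger. These bounds leave out the errors of the spots. Every member probe is given. Other genes are named if they passed a ratio limit in a list, or are ligands or receptors of a member, and further list genes within the limits were named after their values were seen. A few genes of the lists are counted but not reported singly here. Members and lists were chosen with earlier results of these data known. Alternatives were median scaling, quantile normalisation, normexp background correction with quantile normalisation, and the authors' table. Further ones were outlier spots kept, other filters, ratio limits of 0.5 and 2, Z-scores and the mean of a gene's probes. The normexp correction added an offset of 50 to each signal, which draws ratios of dim probes towards 0. Python 3.11.15 (numpy 2.4.6, pandas 2.3.3, matplotlib 3.10.9) and R 4.3.3 (limma 3.58.1) were used, and the calls were tested on simulated data.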

Additional observations from a re-analysis of the deposited data

How the results depend on the processing

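No paired analysis was possible because each genotype has 1 array, and for the same reason no replicate could be left out. The spread between mice is unknown, and probes with signals near 20 are the least certain. The number of member probes counted as higher was 1 in place of 2 with quantile normalisation, with normexp background correction, with the authors' table, with probes well above background on both arrays only, with ratio limits of 0.5 and 2, and with either Z-score as well. The number counted as lower was 0 in place of 1 with ratio limits of 0.5 and 2 and with the Z-score over all probes. *Gjb6* lay at −3.45 with normexp background correction. Of the 57 related genes, 54 were detected, 2 were lower and 4 higher, against 6.23% and 7.28% of all detected genes. The number lower was 4 with median scaling (*Lif* and *Sdf2l1* added), 0 with normexp background correction and 1 with probes well above background on both arrays only. The number higher was 1 with normexp background correction and 2 with probes well above background on both arrays only. Of 55 values of detected member probes under alternatives, 53 lay within the software's error of the main value, 2 moved (*Gdnf* probe 1 and *Cdnf*, with normexp background correction) and 0 reversed. Much of this agreement was fixed in advance. Keeping outlier spots changed no member value, median scaling shifts all ratios alike, and the authors' table nearly repeats quantile normalisation. Averaging the probes of a gene turned the call of *Gdnf* from lower to higher, at 1.36. Of 240 counts for single lists, 209 were within 1.5 times. Scaling to the median shifted all ratios by −0.05, which put the median of the members at −0.01. The cause of these changes was not tested, except that the stricter filters and limits leave fewer probes to count. The part of the added offset in the values with normexp background correction was not tested either.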

Other observations

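Another secreted factor, *Egf*, which activates the EGF receptor, had probes that gave unlike values, as *Gdnf* did. Its brightest probe had signals of 532 ± 53.4 (WT) and 600 ± 60.1 (Cx30 KO), giving a log2 ratio of 0.24 ± 0.20. A second probe (A_55_P2736929) had 5.22 ± 5.26 on the WT array, below the detection mark, and 47.5 ± 7.03 on the Cx30 KO array, at least 2.53-fold higher. Its remaining probe was not detected on either array. *Egf* was singled out after its values were seen.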
